A study of Rattus norvegicus with 12 samples.

Results

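Disease-associated microglia (DAM) genes are a set that microglia, the resident macrophages of the central nervous system, raise around amyloid plaques, dying neurons and damaged myelin. The 10 genes described here are Trem2, Tyrobp, Apoe, Clec7a, Itgax, Axl, Gpnmb, Spp1, Lgals3 and Cst7. They were taken by name from a table of 23526 genes, and each of the 10 had a single entry. All 10 passed the filter on low counts, in a test over 18714 genes. RNA sequencing measured them in rat lumbar cord tissue, in 12 libraries from 4 groups of 3: sham at day 0, and spinal cord injury (SCI) at day 3, day 7 and day 14. The labels give the species, tissue, treatment and day. They give no strain, sex, age or genotype, no level or kind of injury and no number of animals, and the day 0 sham is the one control for all 3 days. Separate animals are not stated for the samples within a group. The p-values therefore reflect the spread among the samples alone, and that spread may be technical.

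The set is best known from mouse models of Alzheimer's disease. TREM2 is a surface receptor for lipids and lipoproteins. It has no signalling tail of its own and pairs with TYROBP (DAP12), an adaptor whose cytoplasmic motif recruits the kinase SYK. In those mice, cells that enter the state lose genes of resting microglia and gain lipid handling, lysosomal and phagocytic genes, and part of that change needs TREM2. Most of the 10 genes are not private to microglia. Astrocytes are a main source of apolipoprotein E in the cord, motor neurons make osteopontin (Spp1), dendritic cells carry CD11c (Itgax), and macrophages that enter from the blood express most of the set. In whole tissue, fewer cells of a type and less RNA per cell cannot be told apart.

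Promoter sequence is shown for Trem2, the receptor that names the pathway, for Itgax, a member that passed the test, and for Gpnmb, the member with the largest fold change. RefSeq promoters on the rat build GRCr8 were matched for 8 of the 10 members (10 promoters, since Apoe has 3), not for Tyrobp and Lgals3. Each line gives the 250 bases before the annotated start, 5′ to 3′ on the gene's strand, with motif matches in capitals. In Trem2 (9:20151780-20152029, minus strand) the capitals mark GAGGAA, the core bound by the myeloid factor PU.1, read on the other strand. In Itgax (1:192149799-192150048, plus strand) they mark TGANTCA, the AP-1 motif. In Gpnmb (4:79340878-79341127, plus strand) they mark the PU.1 core, the AP-1 motif and, nearest the start, CATGTG, which MITF and its relatives bind, read on the other strand.
Trem2: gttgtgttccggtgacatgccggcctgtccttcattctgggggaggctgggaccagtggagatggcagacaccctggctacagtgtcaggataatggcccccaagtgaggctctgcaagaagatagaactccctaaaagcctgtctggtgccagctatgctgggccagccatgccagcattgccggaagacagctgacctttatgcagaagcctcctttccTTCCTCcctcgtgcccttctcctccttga
Itgax: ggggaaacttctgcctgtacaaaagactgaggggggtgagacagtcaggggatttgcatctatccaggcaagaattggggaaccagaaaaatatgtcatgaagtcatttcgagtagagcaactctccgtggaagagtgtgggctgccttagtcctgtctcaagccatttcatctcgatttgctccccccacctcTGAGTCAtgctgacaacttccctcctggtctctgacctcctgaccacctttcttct
Gpnmb: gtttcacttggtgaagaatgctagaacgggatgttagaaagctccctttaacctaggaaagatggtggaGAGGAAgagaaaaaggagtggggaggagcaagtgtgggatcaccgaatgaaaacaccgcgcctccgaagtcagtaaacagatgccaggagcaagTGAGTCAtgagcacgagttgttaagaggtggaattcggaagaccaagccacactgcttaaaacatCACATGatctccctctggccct
Searched on both strands of the 250 bases, GAGGAA was in 4 of the 10 member promoters (of Trem2, Gpnmb, Axl and, in 1 of its 3, Apoe) and in 23.3% of 33469 RefSeq rat promoters. TGANTCA was in 2 of the 10 (Itgax and Gpnmb) and in 6.34% of all, and CATGTG in 2 of the 10 (Gpnmb and 1 of Apoe) and 12.1% of all. CACGTG, at 5.59% of all, and TTGCNNAA, a C/EBP motif at 9.22% of all, had no match in these windows. The Trem2 match lies 29 to 24 bases before the start, the Itgax match 56 to 50, and the last Gpnmb match 22 to 17. These matches are a description of letters.

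Library totals, in units of 1000000 counts, ran from 63.01 to 79.07, and levels are given as CPM, counts per 1000000 of each library total. The libraries differed in composition. The summed CPM of 10 neuronal markers was as low as 417 and 323 for replicates 1 and 3 of SCI day 3, while the other 10 libraries had 4769.6 to 8136. Mitochondrial genes took 5.40% and 5.13% of counts in the same 2 libraries, and 6.27% to 10.5% elsewhere. Muscle markers summed to 190.04 CPM in SCI day 7 replicate 2 and to at most 22.6 CPM elsewhere, and erythrocyte markers to 9429 CPM in SCI day 7 replicate 1 and to at most 2067 CPM elsewhere. Markers of sensory ganglia, which lie outside the cord, summed to 186 CPM in replicate 2 of SCI day 3, to 409 and 728 CPM in replicates 1 and 2 of SCI day 14, and to 15.2 to 72.03 CPM elsewhere. Markers of Schwann cells, the glia of nerve roots, were found in every library, with 2567 to 58518 CPM in sum. All 15 genes of a list of general microglia and macrophage markers had counts in every library, and their sum ran from 566 to 2295 CPM in the SCI libraries and from 585 to 688 CPM in sham. Xcr1, a marker of cross-presenting dendritic cells, was at 0 in 7 of 12 libraries and at most at 0.25 CPM.

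Of the 10 DAM genes 9 had a higher mean than sham at days 3 and 7 and all 10 at day 14 on the fitted scale, and 2 passed the test, both at day 3. Lgals3 and Itgax rose at day 3, with log2 fold changes of 4.07 and 3.87. At day 3, 2 members were called against 5.5% of all tested genes called higher and 6.7% called in either direction (quasi-likelihood test of edgeR, with p adjusted by Benjamini-Hochberg over all genes and a limit of 0.05). At an unadjusted p under 0.05, 8 members were higher, against 20.6% of all genes. DESeq2 called 8 members and 27.5% of all genes, and limma voom 7 members and 33.3% of all genes. In 7 members every day 3 library lay above every sham library, against 21.2% of all genes. Apoe alone lay below in all of them, against 15.9% of all genes. The median log2 fold change of the members was 2.82, beside 0.03 over all genes tested.

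At day 7 no member was called by edgeR, with 0.016% of all genes called, while 5 were higher at an unadjusted p under 0.05 (7.76% of all genes). DESeq2 called Tyrobp, Gpnmb and Lgals3 (2.74% of all genes), and voom called Lgals3 (1.47%). In 5 members (Tyrobp, Gpnmb, Clec7a, Axl and Lgals3) the day 7 libraries all lay above sham, against 13.9% of all genes. At day 14 no member was called by edgeR, again with 0.016% of all genes called, while 8 were higher at an unadjusted p under 0.05 (6.43% of all genes). DESeq2 called Gpnmb, Clec7a and Lgals3 (1.11% of all genes), and voom called no member (0.0481%). In 5 members (Itgax, Spp1, Gpnmb, Clec7a and Lgals3) the day 14 libraries all lay above sham, against 11% of all genes. The median log2 fold change was 2.04 at day 7 and 2.24 at day 14, beside -0.02 and 0.01 over all genes. The 3 comparisons share the sham libraries. Gpnmb and Lgals3 alone among the members lay above every sham library in all 9 SCI libraries, as 4.37% of all genes did.

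**Figure D1:**
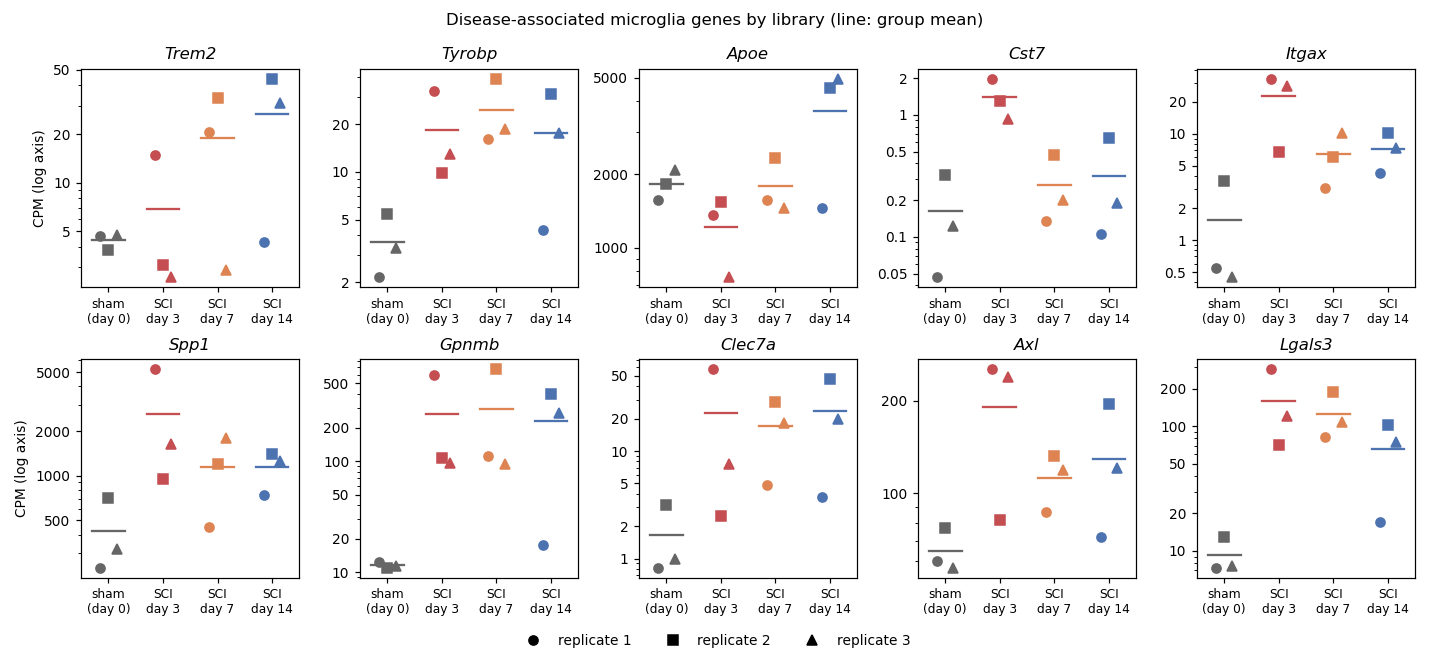
CPM of each of the 10 genes on a log axis in the 12 libraries, by group in time order, with a marker per library and a line at the group mean. Gpnmb and Lgals3 lie above every sham library in all SCI libraries, while Trem2 lies within or below the sham range in SCI day 3 replicates 2 and 3, SCI day 7 replicate 3 and SCI day 14 replicate 1.

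Trem2 (ENSRNOG00000013578, chromosome 9), the lipid receptor, measured 4.71, 3.85 and 4.76 CPM in sham, 14.8, 3.11 and 2.602 CPM at day 3, 20.5, 33.6 and 2.88 CPM at day 7 and 4.33, 44.1 and 31.3 CPM at day 14. The sham libraries were close together. At day 3 and day 7 the SCI libraries fell on both sides of them, with 1 of 3 well above sham at day 3 and 2 of 3 at day 7. At day 14, 2 of 3 were well above sham and replicate 1 lay within it. Its log2 fold change was 0.56 ± 0.95 (SE) at day 3, 2.04 ± 0.98 at day 7 and 2.53 ± 0.99 at day 14 (edgeR adjusted p = 0.697, 0.535 and 0.629). At day 3 the sign turned to -0.65 without SCI day 3 replicate 1. By mean log2 CPM, though not by summed CPM, homeostatic microglia genes were low in 2 of the libraries with little Trem2. Their sum was 3197 and 4886 CPM in replicates 2 and 3 of SCI day 3, against 1749 to 3570 CPM in sham. At day 3, 7 of 13 tested had a positive log2 fold change. Measured from sham, their mean log2 CPM stood at -0.694 and -0.998 in replicates 2 and 3 of SCI day 3, and between 0.008 and 1.31 in the other SCI libraries. Their part in the Trem2 values was not tested.

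Tyrobp (ENSRNOG00000020845, chromosome 1), the signalling adaptor of TREM2 and of many other myeloid receptors, measured 2.15, 5.39 and 3.29 CPM in sham, 32.8, 9.82 and 12.9 CPM at day 3, 16.2, 39.1 and 18.6 CPM at day 7 and 4.28, 31.2 and 17.6 CPM at day 14. Every library of days 3 and 7 lay above sham, and at day 14 replicate 1 lay within it. The log2 fold changes were 2.31 ± 0.70, 2.72 ± 0.71 and 2.26 ± 0.70 (SE) at days 3, 7 and 14 (edgeR adjusted p = 0.0639, 0.263 and 0.594).

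The ratio of Trem2 to Tyrobp, taken on the authors' FPKM values so that gene length is accounted for, was 0.719, 0.235 and 0.476 in sham, 0.149, 0.104 and 0.0658 at day 3, 0.415, 0.283 and 0.0506 at day 7 and 0.332, 0.466 and 0.585 at day 14. All day 3 ratios lay below all sham and all day 14 ratios. On the log2 scale the ratio averaged -3.31 ± 0.59 at day 3 and -1.21 ± 0.82 in sham, a difference of -2.10, and day 14, at -1.16 ± 0.41, stood 2.16 above day 3 (SD, n = 3 each; exact permutation test, 2-sided, p = 0.1 for both, the smallest that 3 against 3 can give, and 0.3 adjusted over the 6 pairs of groups). Day 7 held both high and low ratios, at -2.46 ± 1.62, and differed from sham by -1.25 (exact permutation p = 0.4). This ratio was chosen after the values were seen.

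**Figure D2:**
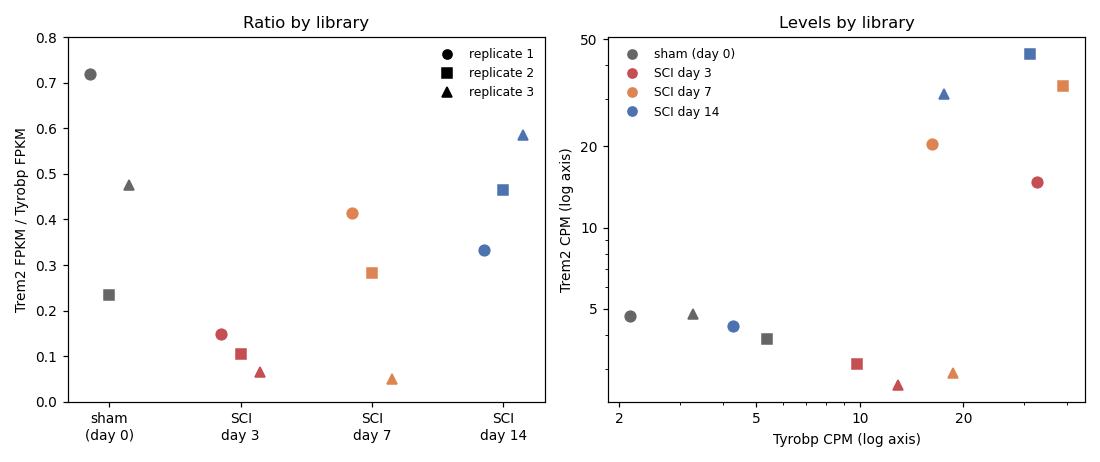
Left, Trem2 FPKM divided by Tyrobp FPKM in each library, by group in time order. Right, Trem2 against Tyrobp CPM on log axes. The day 3 ratios, 0.0658 to 0.149, lie below all sham ratios, and day 7 replicate 3 has the lowest, 0.0506.

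Apoe (ENSRNOG00000018454, chromosome 1), the lipoprotein that carries lipid between glia and neurons and binds TREM2, was the most abundant member in sham and at days 7 and 14, with a mean of 828 FPKM in sham. It measured 1569, 1831 and 2079 CPM in sham, 1364, 1541 and 755 CPM at day 3, 1563, 2347 and 1455 CPM at day 7 and 1458, 4519.5 and 4959 CPM at day 14. The day 3 libraries were all below sham, and 2 of 3 at day 14 were above every other library. The log2 fold change was -0.63 ± 0.41, -0.08 ± 0.41 and 0.95 ± 0.41 (SE) at days 3, 7 and 14 (edgeR adjusted p = 0.289, 0.961 and 0.665). By mean log2 CPM, though not by summed CPM in replicates 1 and 2, markers of astrocytes moved with the day 3 values. By the same test 4 of 10 fell (0 rose), where 224 of 18714 genes were called lower. Their sum was 7282, 7199 and 3559 CPM in replicates 1, 2 and 3 of day 3, against 6294 to 8976 CPM in sham. Measured from sham, their mean log2 CPM was -1.41, -0.62 and -2.07 in replicates 1, 2 and 3 of day 3, and from -0.30 to 0.23 in the libraries of days 7 and 14. Their part in the Apoe values was not tested.

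Of the other surface receptors, Clec7a (ENSRNOG00000054251, chromosome 4) encodes dectin-1, a lectin that signals through SYK. It measured 0.821, 3.15 and 0.983 CPM in sham, 58.1, 2.51 and 7.52 CPM at day 3, 4.88, 28.5 and 18.2 CPM at day 7 and 3.75, 46.9 and 19.9 CPM at day 14. All libraries of days 7 and 14 lay above sham, while SCI day 3 replicate 2 lay within it. The log2 fold changes were 3.72 ± 1.27, 3.33 ± 1.25 and 3.803 ± 1.27 (SE) at days 3, 7 and 14 (edgeR adjusted p = 0.0800, 0.415 and 0.594).

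Itgax (ENSRNOG00000036703, chromosome 1), the integrin alpha chain CD11c of a complement receptor, measured 0.542, 3.61 and 0.445 CPM in sham, 33.1, 6.67 and 28.3 CPM at day 3, 3.10, 6.05 and 10.1 CPM at day 7 and 4.22, 10.2 and 7.33 CPM at day 14. Day 3 and day 14 did not overlap with sham, and SCI day 7 replicate 1 lay below sham replicate 2. Itgax rose at day 3 to 22.7 ± 14.1 CPM, against 1.53 ± 1.80 CPM in sham (SD, n = 3 each). The log2 change was 3.87 ± 0.91 (SE; edgeR adjusted p = 0.0400). At days 7 and 14 it was 2.03 ± 0.85 and 2.21 ± 0.85 (edgeR adjusted p = 0.471 and 0.629). The day 3 call held in 10 of 22 other settings. It was kept without sham replicate 2, SCI day 3 replicate 2 or SCI day 7 replicate 1, and lost without any 1 of the other 9 libraries (adjusted p 0.00463 to 0.164 over all 12 omissions). Of 10 dendritic cell markers tested 0 passed at day 3, and 4 were higher at an unadjusted p under 0.05 (20.6% of all genes). The list summed to 89.8, 90.6 and 121 CPM in the day 3 libraries, against 72.1 to 99.96 CPM in sham. Measured from sham, its mean log2 CPM was 0.84, 0.39 and 1.06 in replicates 1, 2 and 3 of day 3, and -0.37 to 0.34 in sham. The part of these markers in the Itgax values was not tested.

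Axl (ENSRNOG00000020716, chromosome 1), a receptor kinase that clears dying cells through its bridging ligands GAS6 and protein S, measured 59.9, 76.8 and 57.0 CPM in sham, 254, 81.8 and 239 CPM at day 3, 86.8, 132 and 119 CPM at day 7 and 72.1, 195 and 121 CPM at day 14. SCI day 3 replicates 1 and 3, the libraries poor in neuronal transcripts, were the highest of all, and day 14 replicate 1 lay within sham. The log2 fold changes were small beside those of most members, at 1.54 ± 0.44, 0.75 ± 0.43 and 0.96 ± 0.43 (SE) for days 3, 7 and 14 (edgeR adjusted p = 0.0562, 0.618 and 0.670).

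Gpnmb (ENSRNOG00000008816, chromosome 4), a lysosomal and surface glycoprotein of lipid-laden macrophages, measured 12.4, 10.97 and 11.3 CPM in sham, 593, 106 and 95.7 CPM at day 3, 112, 675 and 94.8 CPM at day 7 and 17.7, 402 and 273 CPM at day 14. Sham was tight. The SCI libraries spread widely, with 1 library well above the other 2 at days 3 and 7 and 1 close to sham at day 14. It had the largest log2 fold change of the members at each day, 4.45 ± 1.21, 4.59 ± 1.22 and 4.27 ± 1.199 (SE; edgeR adjusted p = 0.0525, 0.267 and 0.553). Over the 12 libraries the highest Gpnmb level was 61.5 times the lowest.

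Among the secreted members, Spp1 (ENSRNOG00000043451, chromosome 14) encodes osteopontin, a matrix protein that binds integrins and CD44. It measured 239, 705 and 321 CPM in sham, 5250.3, 957 and 1631 CPM at day 3, 448, 1206 and 1805 CPM at day 7 and 743, 1409.9 and 1264 CPM at day 14. Days 3 and 14 lay above sham throughout, though SCI day 14 replicate 1 exceeded sham replicate 2 by little, and SCI day 7 replicate 1 lay within sham. The log2 fold changes were 2.58 ± 0.70, 1.41 ± 0.67 and 1.40 ± 0.67 (SE) at days 3, 7 and 14 (edgeR adjusted p = 0.0516, 0.534 and 0.695). At day 3 it was the most abundant member per length, with a mean of 1606 FPKM, beside 554 FPKM for Apoe. Among sham libraries, replicate 2 had the highest Spp1, Tyrobp, Clec7a, Itgax, Axl, Lgals3 and Cst7 and also the most Schwann cell and neutrophil markers, with 47630.5 and 95.8 CPM in sum, against at most 7637 and 7.00 CPM in the other sham libraries.

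Lgals3 (ENSRNOG00000010645, chromosome 15) encodes galectin-3, a lectin that binds damaged lysosomes and acts outside the cell on phagocytosis. It measured 7.32, 12.8 and 7.62 CPM in sham, 289.5, 71.1 and 121 CPM at day 3, 82.2, 188 and 108 CPM at day 7 and 17.1, 103 and 75.4 CPM at day 14. All SCI libraries were above sham, with SCI day 14 replicate 1 closest. Lgals3 rose at day 3 by a log2 value of 4.07 ± 0.71 (SE; edgeR adjusted p = 0.0324), and stood at 3.72 ± 0.70 at day 7 and 2.78 ± 0.67 at day 14 (edgeR adjusted p = 0.171 and 0.502). The day 3 call held in 13 of 22 other settings, and in 6 of the 12 that left out a library. It was lost without sham replicate 1 or 3, SCI day 3 replicate 1 or 3, SCI day 7 replicate 2 or SCI day 14 replicate 3.

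Cst7 (ENSRNOG00000006767, chromosome 3) encodes cystatin F, which restrains cathepsins in the lysosome. It was the rarest member, with 3, 21 and 8 reads in the sham libraries, so its values carry the largest counting error. It measured 0.0465, 0.322 and 0.123 CPM in sham, 1.99, 1.30 and 0.917 CPM at day 3, 0.134, 0.4696 and 0.1999 CPM at day 7 and 0.106, 0.647 and 0.190 CPM at day 14. Day 3 lay above all other groups without overlap, and the other 3 groups overlapped. The log2 fold change against sham was 3.05 ± 0.88 at day 3, 0.65 ± 0.84 at day 7 and 0.91 ± 0.84 at day 14 (SE; edgeR adjusted p = 0.0579, 0.838 and 0.891).

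**Figure D3:**
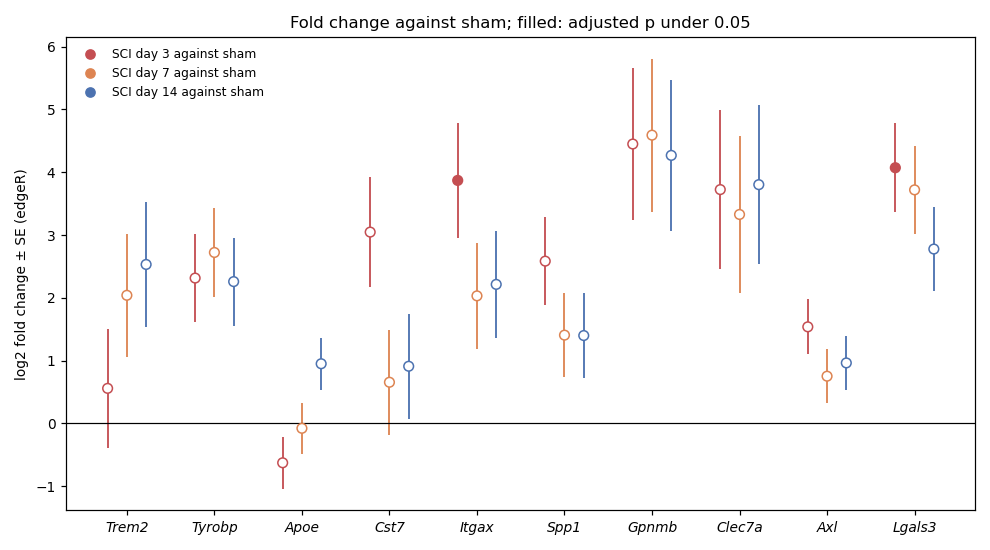
Log2 fold change with its SE for each gene at days 3, 7 and 14 against sham, from edgeR. Filled points, Itgax and Lgals3 at day 3, have an adjusted p under 0.05. Trem2, Apoe and Clec7a have their largest value at day 14, Tyrobp and Gpnmb at day 7, and Cst7, Itgax, Spp1, Axl and Lgals3 at day 3.

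The order of the groups differed between members. By group mean, Cst7, Itgax, Spp1, Axl and Lgals3 were highest at day 3, Tyrobp and Gpnmb at day 7, and Trem2, Apoe and Clec7a at day 14. Of neighbours in these orders only day 3 against day 14 for Cst7, and the lowest SCI day against sham for Spp1, Gpnmb, Clec7a, Axl and Lgals3, did not overlap. No member differed between days in edgeR, where no gene of the 18714 was called in any of these pairs, or in voom. DESeq2 called Apoe between days 14 and 3 (5.86% of all genes) and no other member. At an unadjusted p under 0.05 Cst7 was lower at day 7 than at day 3 (9.48% of all genes) and Apoe higher at day 14 than at day 7 (2.24%). At day 14 Apoe was higher and Cst7 lower than at day 3 by the same limit (6.83% and 11% of all genes). Cst7 at days 7 and 14 lay below every day 3 library, against 7.76% and 9.62% of all genes. Between days 14 and 3, log2 differences were 1.58 ± 0.42 for Apoe, 1.97 ± 0.97 for Trem2, -2.14 ± 0.84 for Cst7, -1.66 ± 0.83 for Itgax and -1.30 ± 0.64 for Lgals3 (SE; edgeR adjusted p = 0.188, 0.307, 0.240, 0.314 and 0.305). Between days 7 and 3 they were -2.39 ± 0.85 for Cst7, -1.84 ± 0.83 for Itgax and -0.79 ± 0.43 for Axl (edgeR adjusted p = 0.323, 0.337 and 0.370). For Apoe between days 14 and 7 the difference was 1.03 ± 0.41 (edgeR adjusted p = 1.0). These members are named because their unadjusted p was under 0.1. Without SCI day 3 replicate 2 edgeR called 1 of 10 members between days 14 and 3, Apoe, and 1 between days 7 and 3, Axl, where it called 22.8% and 18.9% of all genes.

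SCI on any day, the mean of the 3 days, was also set against sham. There edgeR called no member, with 0.0481% of all genes called, 7 were higher at an unadjusted p under 0.05 (13% of all genes), and DESeq2 and voom called 7 and 8 (8% and 30.5% of all genes). Without SCI day 3 replicate 2 edgeR called 7 members (17.5% of all genes), and without SCI day 14 replicate 1 it called Lgals3 (0.0838%). The test of the 4 groups together called 0 of the 10 in edgeR, with 0.0427% of all genes called, 8 at an unadjusted p under 0.05 (19.5% of all genes), 7 in DESeq2 (14.1%) and 5 in voom (16.7%). Without SCI day 3 replicate 2 edgeR called 4 there, and 22.7% of all genes.

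Libraries of the same day differed. Of the 10 members, 10 lay above the highest sham library in SCI day 7 replicate 2 and SCI day 14 replicate 2, where 37.4% and 36.4% of all genes did. In SCI day 3 replicate 1 and SCI day 14 replicate 3, 9 did (43.7% and 37.8% of all genes). The lowest counts were 5 in SCI day 14 replicate 1 and 6 in SCI day 7 replicate 1 (25.9% and 25.5%). SCI day 3 replicates 2 and 3 and SCI day 7 replicate 3 had 7, 8 and 7 (32.6%, 40.2% and 34.1%). In each of these 3 Trem2 and Apoe lay below the lowest sham library, where 24.6%, 39.7% and 29.9% of all genes did. Apoe also lay below it in SCI day 3 replicate 1, SCI day 7 replicate 1 and SCI day 14 replicate 1 (35.3%, 23.1% and 19.2%). SCI day 14 replicate 1, with the fewest, had 409 CPM of sensory ganglion markers. Its general microglia and macrophage markers summed to 566 CPM, below the 585 to 688 CPM of sham, but stood 0.14 above sham in mean log2 CPM. SCI day 14 replicate 2, where all 10 members lay above sham, had the most sensory ganglion markers, 728 CPM. The part of these markers in the member values was not tested.

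To set the members beside microglia and macrophage RNA as a whole, each was expressed as log2 CPM minus the mean log2 CPM of the 15 general markers, which share no gene with the 10, and centred on sham. The general markers themselves, in log2 units above sham, were at 2.35, 0.56 and 0.79 at day 3, at 1.71, 2.38 and 1.68 at day 7 and at 0.14, 2.34 and 2.05 at day 14. Gpnmb, Lgals3, Tyrobp and Clec7a exceeded them in every SCI library. Gpnmb exceeded them by 2.28 to 3.24 at day 3, 1.31 to 3.39 at day 7 and 0.46 to 2.74 at day 14, and Lgals3 by 2.38 to 2.995, 1.497 to 1.92 and 0.78 to 1.15. Tyrobp ran from -0.58 to 0.60 in sham on this scale. It exceeded the general markers by 0.19 to 1.17 in the SCI libraries, and by 0.84 to 1.17 at day 3. Clec7a, from -0.66 to 1.11 in sham, exceeded them by 0.11 to 2.945 in the SCI libraries. Spp1, from -0.60 to 0.825 in sham, ran from 0.73 to 1.36 at day 3, -1.46 to 0.53 at day 7 and -0.47 to 0.815 at day 14. Axl, from -0.15 to 0.19 in sham, ran from -0.45 to 1.135, -1.43 to -0.83 and -1.21 to 0.015 on these days. Apoe was below them in all 9, from -2.85 to -0.47. Cst7, which ran from -1.04 to 1.09 in sham, was above them at day 3, from 1.25 to 2.48. At days 7 and 14 it was below them, from -1.66 to -0.268, partly within that sham range. Itgax was above them by 2.15 to 4.07 at day 3, while sham itself ran from -1.06 to 1.80. Trem2 was below them in all day 3 libraries, from -1.52 to -0.70, and at -2.33 in SCI day 7 replicate 3. It was at 0.45 to 0.94 in SCI day 7 replicates 1 and 2 and SCI day 14 replicates 2 and 3. The median member stood 1.21 above sham on this scale at day 3, 0.32 at day 7 and 0.55 at day 14, values given with no test. In sham it ran from -0.40 to 0.52, overlapping day 7 (0.03 to 0.64) and day 14 (0.32 to 0.89) but not day 3 (0.83 to 1.51). Against Aif1, Csf1r and Itgam alone, the median member stood at 1.19, 0.11 and 0.62, with sham from -0.43 to 0.76.

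**Figure D4:**
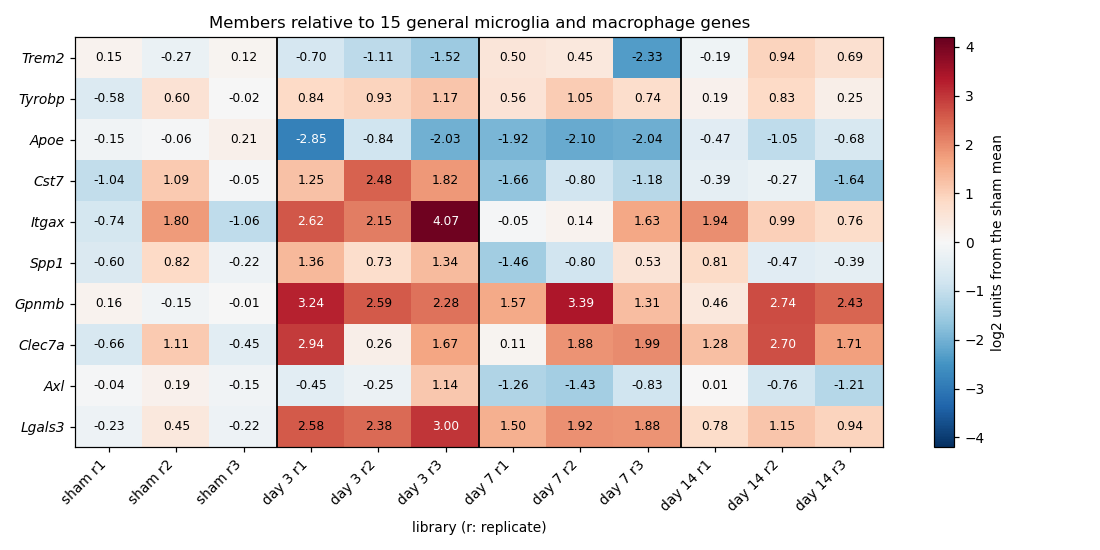
Log2 CPM of each gene minus the mean of 15 general microglia and macrophage genes, in log2 units from the sham mean, by library in time order (r, replicate). Gpnmb, Lgals3, Clec7a and Tyrobp are above 0 in every SCI library, with Clec7a and Tyrobp partly within their sham ranges. Apoe is below 0 in every SCI library, and Cst7 is above 0 at day 3 alone among the SCI days.

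Similarity of profile was measured as the root mean square difference over the 12 libraries between log2 CPM values, each gene centred on its own mean. For each of the 10 the nearest gene was not a member, and this is a description with no test. Trem2 was nearest to Cd84 (0.52) and, among members, to Apoe (1.08), with 208 genes nearer than that. Tyrobp was nearest to the integrin Itgal (0.29) and then Cd300a, and its nearest member was Lgals3 (0.64). Apoe was nearest to Cst3 (0.31), the cystatin C gene, and the nearest gene to both Gpnmb (0.74) and Clec7a (0.57) was Cd68. Lgals3 was nearest to Clec12a (0.45), Itgax to S100a11 (0.55), Cst7 to Fosb (0.66), Spp1 to Eif4ebp1 (0.33) and Axl to Ptbp3 (0.19). The farthest pair was Trem2 and Itgax, at 2.13. The points share library composition and depth, and genes with small changes, such as Axl and Apoe, lie near many others by this measure.

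Other genes of the DAM state came from a list of 30 with 27 in the table, all tested. At day 3, 6 were called higher and 0 lower, against 5.5% of all genes called higher, with a median log2 fold change of 1.16. At an unadjusted p under 0.05, 14 were higher at day 3 (20.6% of all genes) and 1 lower (2740 of 18714 genes). Among them Ch25h, which makes an oxysterol, and Plin2, which coats lipid droplets, rose by 3.53 and 3.08 (edgeR adjusted p = 0.0324 for both). The tetraspanin Cd63 rose by 2.20 and the hypoxia factor Hif1a by 1.13 (edgeR adjusted p = 0.0369 and 0.0392). At days 7 and 14 no gene of the list passed in edgeR, with medians of 0.93 and 1.11. At an unadjusted p under 0.05, 12 and 10 of 27 were higher on these days (7.76% and 6.43% of all genes). The lipoprotein lipase Lpl, a classical gene of the state, measured 18.7, 95.3 and 24.0 CPM in sham, 88.6, 80.2 and 219 CPM at day 3, 27.1, 18.4 and 82.3 CPM at day 7 and 43.2, 46.8 and 36.0 CPM at day 14. Its highest libraries, SCI day 3 replicate 3 and sham replicate 2, were also those with the most Schwann cell markers (58518 and 47630.5 CPM in sum), and the part of these in Lpl was not tested.

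Of 21 tested genes on a list for TREM2 and TYROBP signalling, 1 passed at day 3, a share near the 5.5% of all genes called higher. It was the kinase Lyn, which rose by 2.16 (edgeR adjusted p = 0.0463). Besides genes that carry the signal, the list holds the proteases Adam10 and Adam17 and the receptors Sirpa, Trem1, Treml2 and Cd300lb. The list had a median of 1.33 at day 3, 1.62 at day 7 and 1.19 at day 14. At an unadjusted p under 0.05, 12, 14 and 7 of 21 were higher (20.6%, 7.76% and 6.43% of all genes). Adam10, Adam17 and Trem1 were among the 12, and Treml2 among the 14. The general microglia and macrophage list gave 0 of 15 called at each day in edgeR, with medians of 1.71, 2.26 and 1.61. At an unadjusted p under 0.05, 11, 12 and 13 were higher (20.6%, 7.76% and 6.43% of all genes) and 1, 0 and 0 lower. The complement genes C1qb and C1qc had day 3 values of 2.598 and 2.63 (edgeR adjusted p = 0.0581 and 0.0585). The homeostatic list gave 0 of 13 at each day in edgeR, with medians of 0.08, 0.74 and 0.73. At an unadjusted p under 0.05, 1, 2 and 3 were higher (20.6%, 7.76% and 6.43% of all genes) and 2, 0 and 0 lower. At day 3 Mef2a was the 1 higher and P2ry12 and P2ry13 the 2 lower, while 7 of 13 had a positive log2 fold change. P2ry12, the nucleotide receptor of resting microglia, measured 26.9, 13.1 and 20.2 CPM in sham, 13.8, 3.72 and 3.10 CPM at day 3, 41.7, 57.7 and 14.98 CPM at day 7 and 15.4, 37.1 and 51.6 CPM at day 14. The libraries low in P2ry12 at day 3, replicates 2 and 3, are those low in Trem2.

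Partners of the members were taken by role, beside 5.5% of all genes called higher at day 3. For Spp1, 3 of 9 receptor genes rose at day 3, namely Cd44 by 2.81, Itga5 by 3.79 and Itgb1 by 1.36 (edgeR adjusted p = 0.0324, 0.0358 and 0.0421). For Axl, protein S (Pros1) rose by 1.70 at day 3 (edgeR adjusted p = 0.0386), while log2 values for Gas6 and the related receptors Mertk and Tyro3 were -0.68, 1.13 and -0.900 (edgeR adjusted p = 0.106, 0.133 and 0.158). For Clec7a, 3 of 10 tested genes of its family, itself included, rose at day 3, namely Clec12a by 3.70, Clec4a3 by 2.44 and Clec4e (edgeR adjusted p = 0.0386, 0.0433 and 0.0358). Clec4e measured 0.696, 0.0919 and 1.95 CPM at day 3, against 0 in every sham library, so no fold is given. For Cst7, 2 of 11 cystatins and cathepsins rose, Cstb by 1.04 and Ctsb by 1.504 (edgeR adjusted p = 0.0407 and 0.0473), and Ctsc, the protease that cystatin F holds back, had a log2 value of 2.15 (edgeR adjusted p = 0.0529). For Itgax, 0 of 6 leukocyte integrin genes passed in edgeR at day 3, and 4 were higher at an unadjusted p under 0.05 (20.6% of all genes). Its partner chain Itgb2 had a log2 value of 2.51 (edgeR adjusted p = 0.0682).

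Receptors and exporters of apolipoprotein E gave 0 of 10 called in edgeR at day 3, with a median of 0.14. At an unadjusted p under 0.05, 2 of 10 were higher, near the 20.6% of all genes, and 1 lower (2740 of 18714 genes). Of 7 tested lipid carriers and TREM2 ligands, Apoe included, 0 passed in edgeR, with 1 higher at an unadjusted p under 0.05 (20.6% of all genes). The lipid exporter Abca1 measured 30.49, 31.6 and 30.48 CPM in sham, 71.2, 27.5 and 80.6 CPM at day 3, 46.5, 85.8 and 63.0 CPM at day 7 and 43.9, 160.3 and 141 CPM at day 14. As with Apoe, its highest libraries were SCI day 14 replicates 2 and 3. Of 8 genes related to GPNMB or its MITF family regulators 0 passed in edgeR at day 3. At an unadjusted p under 0.05, 3 were higher (20.6% of all genes). The log2 values of Mitf and Tfec were 0.45 and 2.84 (edgeR adjusted p = 0.0942 and 0.0806). Galectins other than Lgals3 did not pass at day 3, with Lgals1 at 1.04 (edgeR adjusted p = 0.104). At days 7 and 14 no gene of the partner lists was called by edgeR.

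Markers of monocytes and border macrophages moved with the members. At day 3, against 5.5% of all genes, 4 of 14 rose (Chi3l1 by 1.72, Cd14 by 3.92, F13a1 by 2.58 and Fn1 by 2.12, with edgeR adjusted p = 0.0332, 0.0358, 0.0370 and 0.0424). Their summed level was 653 to 1808 CPM at day 3, 825 to 1544 CPM at day 7 and 476 to 1306 CPM at day 14, against 291 to 372 CPM in sham. No gene of this list was at 0 in an SCI library. In mean log2 CPM measured from sham the list stood highest, at 2.51, 2.27 and 2.24, in replicates 1 and 3 of SCI day 3 and replicate 3 of SCI day 7, and among these Trem2 was the highest of its day in day 3 replicate 1 and the lowest in day 3 replicate 3 and day 7 replicate 3. Endothelial markers also moved with the members at day 3, where 6 of 9 rose (among them Esam by 1.63 and Pecam1 by 2.29; edgeR adjusted p = 0.0324 and 0.0358) and their sum was 641 to 1694 CPM, against 307 to 423 CPM in sham. Of 10 oligodendrocyte markers 3 fell at day 3, where 224 of 18714 genes were called lower. They were Opalin at a log2 value of -1.67, Ermn at -1.84 and Cnp at -1.18 (edgeR adjusted p = 0.0398, 0.0445 and 0.0458). The list summed to 31119 to 41235 CPM at day 3, overlapping the 34530 to 72340 CPM of sham. The part of such cells in the values of the 10 genes was not tested. Neuronal markers gave 0 of 10 called in edgeR at day 3, with 3 lower at an unadjusted p under 0.05 (2740 of 18714 genes). They stood at -3.59, -0.41 and -4.10 in replicates 1, 2 and 3 of day 3. Without replicate 1 or replicate 3 of day 3 no member was called, nor without sham replicate 1, sham replicate 3, SCI day 7 replicate 2 or SCI day 14 replicate 3. Without replicate 1, without replicate 3 and without both, the log2 fold change of Lgals3 was 3.38, 4.21 and 2.90, and that of Itgax was 3.54, 3.64 and 2.09. Without day 3 replicate 2, which has sensory ganglion transcripts, 8 of 10 members were called, all but Trem2 and Apoe. The share of all genes called was then 37.1%, against 6.7% with all libraries. That omission leaves day 3 with only replicates 1 and 3, both poor in neuronal transcripts.

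**Figure D5:**
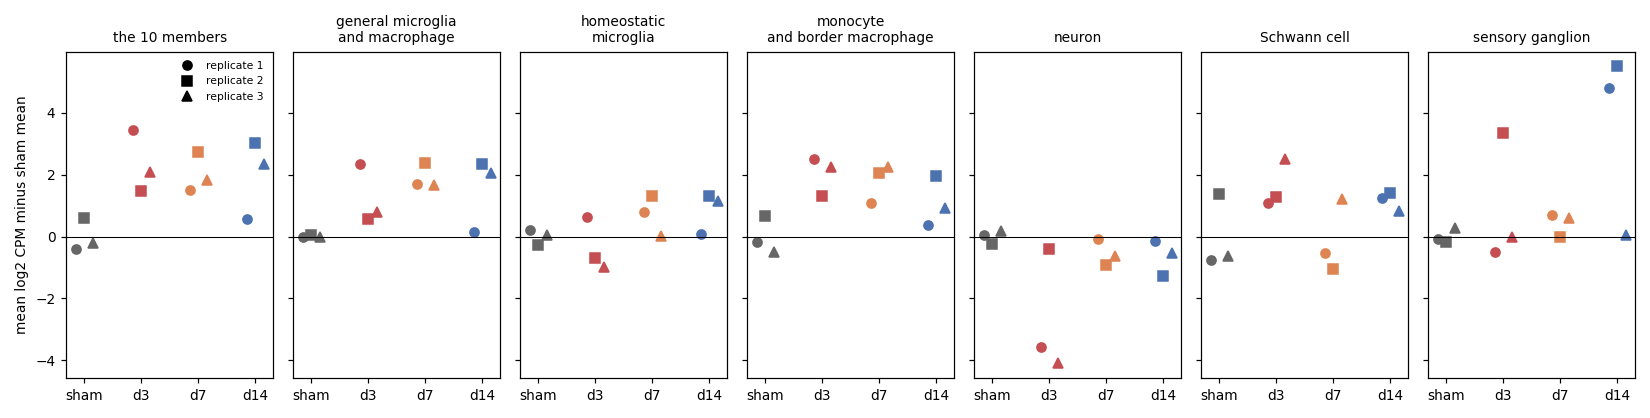
Mean log2 CPM of the 10 genes and of 6 marker lists, in log2 units from the sham mean, in each library by group (d3, d7 and d14, days after SCI). The general microglia and macrophage list is near 0 in SCI day 14 replicate 1, where the members are lowest among SCI libraries, and neuronal markers are lowest in SCI day 3 replicates 1 and 3.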

How the data were processed

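RNA from 12 rat lumbar cord samples was extracted with an RNeasy kit and made into libraries with a SMARTer kit for mRNA, per the labels' protocols. The deposited counts are whole reads by gene with no scaling. The authors' FPKM values, named so in the file header, are also scaled to transcript length and library size. FPKM followed the counts within a gene to 0.429% over 9502 genes and was used only to compare genes. The identifiers are rat Ensembl ones, but the builds in the submitters' processing notes (GRCm38, mm10) are of mouse, so no table coordinates are printed. Alignment, counting and strand use are not given in the sources used, and genes with overlapping or near-identical partners are uncertain.

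No library was a copy of another (smallest chi-square per gene 60.3). Of 23526 genes, edgeR's filterByExpr by group kept 18714. Libraries were scaled with TMM, and 1 mean per group was fitted to all 12 libraries with edgeR 4.0.16 in R 4.3.3, leaving 8 degrees of freedom. Quasi-likelihood tests were adjusted by Benjamini-Hochberg over all genes, with a limit of 0.05. An SE is the log2 fold change divided by the root of F, so it restates the test. The edgeR step was also tested on simulated data. Log2 CPM for profiles and lists used TMM and a prior count of 2. Alternatives were DESeq2 1.42.0, limma voom 3.58.1 with sample weights, other scalings and filters, the replicate number as a block, fits limited to the groups of a comparison, and omission of each library in turn.

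The members, gene lists and tests were chosen with earlier results of these data known. The rule named all 10 members, up to 4 genes with the smallest p of a list described, the nearest profiles, and markers that moved with a result. Lpl, Xcr1 and Tyro3 were named, and the Trem2 to Tyrobp ratio chosen, after values were seen, as was the limit of 0.1 for naming members between days. Promoters are from RefSeq on GRCr8.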

Additional observations from a re-analysis of the deposited data

How the results depend on the processing

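The number of members called depended on the tool and on single libraries. At day 3 against sham, edgeR called 2 (6.7% of all genes), DESeq2 8 (27.5%) and voom 7 (33.3%). A stricter filter at 1 CPM gave 4 (1658 of 15098 genes), and a fit limited to those groups gave 0 (1 of 17905 genes). Leaving out 1 library gave 0 to 8, with 8 without SCI day 3 replicate 2 (37.1% of all genes). It gave 2 without sham replicate 2, SCI day 7 replicate 1 or SCI day 14 replicate 1 (524, 749 and 557 genes). It gave 1 without SCI day 7 replicate 3 or SCI day 14 replicate 2 (729 and 647 genes), and 0 without the other 6 (1 to 18 genes). With both SCI day 3 libraries poor in neuronal transcripts left out, 0 were called. With the libraries that hold sensory ganglion transcripts left out, an alternative added after the data were seen, 8 were called (6787 of 19586 genes). That setting omits SCI day 3 replicate 2 and SCI day 14 replicates 1 and 2. It leaves day 3 with only replicates 1 and 3, both poor in neuronal transcripts. The 8 are the same as without SCI day 3 replicate 2 alone, so ganglion and neuronal content cannot be told apart here. At day 7 against sham edgeR called 0 (0.016% of all genes), DESeq2 3 (2.74%) and voom 1 (1.47%). A fit limited to those groups called 1 (Lgals3, with 89 of 17833 genes). At day 14 edgeR called 0 and DESeq2 3 (0.016% and 1.11% of all genes). For SCI on any day edgeR called 0 (0.0481% of all genes), DESeq2 7 (8%) and voom 8 (30.5%). Leaving out 1 library gave 0 to 7 (1 to 3341 genes), and leaving out those with ganglion transcripts 5 (2409 of 19586 genes). For the 4 groups together edgeR called 0 (0.0427% of all genes), DESeq2 7 (14.1%) and voom 5 (16.7%). Leaving out 1 library gave 0 to 4 (0 to 4330 genes), and leaving out the ganglion libraries 5 (3785 of 19586 genes). Between days edgeR called 0. DESeq2 called 1 (Apoe, days 14 and 3, with 5.86% of all genes). Leaving out 1 library gave 0 to 1 for days 14 and 3 and for days 7 and 3 (at most 4342 and 3605 genes). Without the ganglion libraries each gave 1 (2088 and 3222 of 19586 genes).

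Over all genes, edgeR called 1254 at day 3, DESeq2 5150 and voom 6232, a fit of only the groups compared 1, no filter 733, leaving out 1 library 1 to 7087, both libraries poor in neuronal transcripts left out 1, and without the ganglion libraries 6787. At day 7 edgeR called 3, DESeq2 513, voom 276, and a fit limited to those groups 89, while leaving out 1 library gave 1 to 7. At day 14 edgeR called 3, DESeq2 207, voom 9, and a fit limited to those groups 0, while leaving out 1 library gave 1 to 3.

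The replicate numbers share no stated litter or day, and deviations of same-numbered libraries correlated from -0.343 to 0.247, so they were not taken as pairs. With the replicate number as a block, edgeR called 0 members and 8 genes at day 3, and 0 members in every other comparison.

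Signs changed for members not called. With 1 library left out, Trem2 at day 3 (0.56 in all) ran from -0.65 without SCI day 3 replicate 1 to 0.93, Apoe at day 7 (-0.08 in all) from -0.29 to 0.048, with 0.022 without sham replicate 3, and Cst7 at day 14 (0.91 in all) from -0.20 without SCI day 14 replicate 2 to 1.83. With both day 3 libraries poor in neuronal transcripts left out, Trem2 was at -0.56. With Aif1, Csf1r and Itgam alone in place of the 15 general microglia genes, the median member was at 0.11 in place of 0.32 at day 7, with 1 of 3 libraries at -0.10, a move within the spread between libraries. The causes were not tested. Cst7, with 3 to 21 reads in sham, has the largest counting error. What depth adds to the other calls was not tested.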
